A study of Mus musculus with 39 samples.

Results

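The 35 genes described here code for enzymes of glycolysis and their regulators, for lactate dehydrogenase, for pyruvate dehydrogenase and its kinases, and for carriers of hexoses, pyruvate and lactate. They were chosen by symbol, and all 35 were present in both gene count tables, which held 46333 rows for females and 54532 rows for males. Glycolysis converts glucose to pyruvate in the cytosol, and pyruvate is then either reduced to lactate by lactate dehydrogenase or carried into mitochondria and oxidised by pyruvate dehydrogenase. Microglia, the resident macrophages of the brain, are known to raise glycolysis when they are activated. Many genes of the pathway are also textbook targets of hypoxia-inducible factor (HIF), the transcription factor that is stabilised when oxygen is low.

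Microglia were pulled from the cerebrum of WT (C57Bl6, by the methods the substrain C57BL/6J) and 5XFAD mice (by the methods a B6SJL line whose males were bred to C57BL/6J females) with magnetic beads against CD11b, a surface protein of myeloid cells, and their RNA was sequenced in 39 libraries. 5XFAD mice carry transgenes under a neuronal promoter and develop amyloid plaques, so the transgenes are not designed to be expressed in the cells that were sequenced. From 4 months of age, mice of each genotype were kept in normoxia (NX, 21% O2) or in chronic intermittent hypoxia (CIH), which the labels give as 6.5% O2 at intervals of 90 seconds for 8 hours of daily sleep time. The methods of the study give a lower oxygen level and more hours per day. Females were 10 months old after 6 months of exposure, and males were 8 months old after 4 months. The 8 groups (each genotype in each treatment, by sex) held 5 libraries each, except for female WT NX with 4, and the study describes the libraries as independent samples. Because sex went together with age, length of exposure and the gene annotation used for counting, the effect of sex cannot be told apart from theirs, and the sexes were not tested against each other.

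The libraries held 14731683 to 25906121 counts in females and 13457293 to 23095627 in males. All 10 microglia markers examined were above a CPM of 1 in every library. Their summed level was 30832 to 35279 CPM in female WT, 25645 to 28812 in female 5XFAD, 28819 to 36703 in male WT and 23687 to 28622 in male 5XFAD. CPM are counts scaled to a common library size, here adjusted by the trimmed mean of M-values (TMM). Markers of other cells were also present: neuronal markers summed to at most 17.4 CPM and endothelial markers to 14.5 to 185 CPM. Neutrophil markers summed to 10.1 to 1279 CPM over all libraries, with 70 to 1279 CPM in male 5XFAD NX. Astrocyte markers summed to 132 to 1003 CPM, oligodendrocyte markers to 142 to 600 CPM and border macrophage markers to 70.6 to 351 CPM. No gene of the neuron, endothelial, astrocyte or neutrophil lists was at 0 in every library of a group. In bulk samples, fewer cells of a type and less RNA per cell cannot be told apart.

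The female library labelled 5XFAD NX 4 stood apart from its group. Its level of Egln3, a HIF target, was 2.64 CPM against 72.5 to 121 CPM in the other 4 female 5XFAD NX libraries and 1.501 to 10.9 CPM in female WT. Of the 14 members that were higher in 5XFAD in the other 3 genotype comparisons, this library was the lowest of its group for 14 and lay within or below the range of female WT NX for 13. Fold changes of members in female NX are therefore given with and without it. Because it was singled out partly by the values of these members, the adjusted p values without it are descriptive. They are not an independent test of the members. For the same 14 members, male 5XFAD NX 4 was the lowest of its group for 12, and male 5XFAD CIH 5 was the highest of its group for 11. Over all genes, male 5XFAD NX 4 and 5 differed from libraries 1, 2 and 3 by a chi-square per degree of freedom of 87.8 to 127, against 13.1 to 19.1 among those 3 and 7.67 between 4 and 5. Without male 5XFAD NX 4, the members called in male NX were 15 higher and 2 lower, against 11% and 7.12% of all genes. Without male 5XFAD NX 5 they were again 15 and 2, against 11.5% and 7.51%. Without male 5XFAD CIH 5, the members called in male CIH were 16 higher and 3 lower, against 24.1% and 22.3%.

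Between genes, levels were compared only per gene length, as the FPKM values (fragments scaled by gene length and library size) that the authors deposited. In female WT NX, the most abundant members were Ldhb at 246 ± 18.2 FPKM (SD, n = 4), Slc2a5 at 246 ± 26.8 FPKM and Aldoa at 245 ± 63.8 FPKM. In male WT NX, the order at the top was Ldhb at 282 ± 23.1 FPKM (SD, n = 5), Slc2a5 at 245 ± 21.6 FPKM and Aldoa at 150.1 ± 20.6 FPKM. Ldhb codes for the heart-type subunit of lactate dehydrogenase, Slc2a5 for the fructose transporter GLUT5, long used as a microglia marker, and Aldoa for the main aldolase. The differences between Ldhb, Slc2a5 and Aldoa in females were within 1 SD, whereas the male means of the 3 genes lay further apart than 1 SD. In female 5XFAD CIH the order was different, with Aldoa at 514 ± 52.1 FPKM (SD, n = 5), Pkm at 335 ± 38.7 FPKM and Eno1 at 271 ± 23.9 FPKM on top. Some isoforms were low, with Pfkp, Pfkfb1, Eno2 and Pdk4 below 2 FPKM on average in every group.

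**Figure D1:**
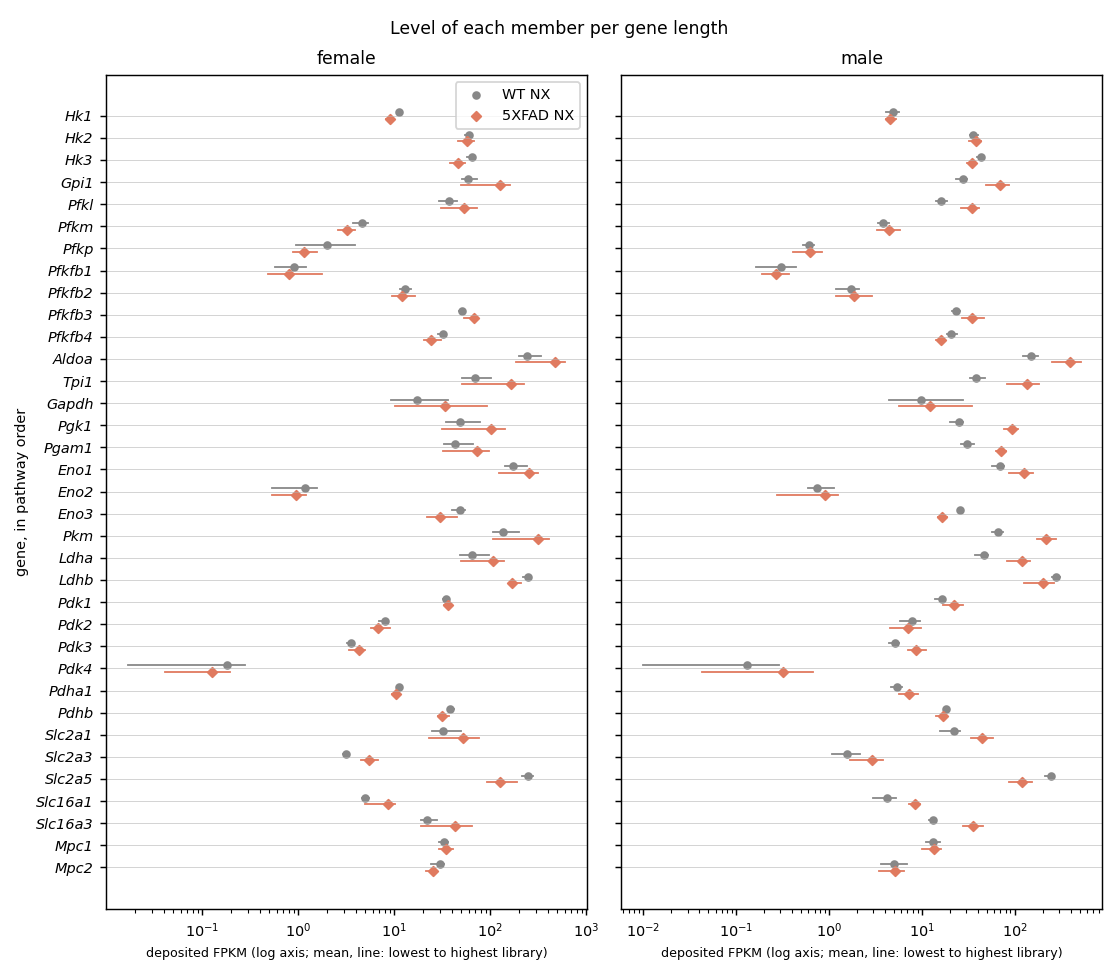
Deposited FPKM of each member in WT NX and 5XFAD NX (log axis), with the mean as a point and the lowest and highest library as a line, females on the left and males on the right. Aldoa, Ldhb and Slc2a5 lie at the top in WT NX, and Pfkp, Pfkfb1, Eno2 and Pdk4 lie below 2 FPKM (for Pdk4 in male WT NX, the line is cut at the lower end of the axis).

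Glycolytic genes were higher in 5XFAD than in WT microglia in 3 genotype comparisons, at most steps from glucose-6-phosphate to lactate export. In female WT CIH vs 5XFAD CIH, 18 of 34 tested members were significantly higher in 5XFAD, where 26.2% of the 14911 genes tested were, and 5 were lower, against 25.7% of genes. In male WT NX vs 5XFAD NX, 15 of 35 members were higher, against 10.4% of 14834 genes, and 2 were lower, against 7.37%. In male WT CIH vs 5XFAD CIH, 15 of 35 members were higher, against 25.3% of 14793 genes, and 4 were lower, against 23.7%. With an absolute log2 fold change above 1 also required, 15 female members in CIH, 12 male members in NX and 12 male members in CIH were past both thresholds, against 13%, 8.25% and 18.7% of all genes. The median log2 fold change of the members was 0.38, 0.44 and 0.24 in these 3 comparisons, and that of all genes was -0.02, 0.02 and -0.06. Scaling by library size alone moved the all-gene medians to -0.21, -0.16 and -0.43 and the members' medians to 0.18, 0.27 and -0.13, so that the members' median in male CIH changed sign. The members called higher and lower were then 16 and 10, 13 and 6, and 14 and 10. Of all genes, 17.5% and 42.2%, 7.25% and 14.7%, and 15% and 45.8% were then called higher and lower. Statements below that a member was called in no comparison hold for the TMM fit. With library size alone, members that the TMM fit did not call were called lower in each of these 3 comparisons. Without ending the call, this scaling moved the log2 fold changes of Ldhb (to -0.56), Hk3 (to -0.53) and Pfkfb4 (to -0.45) in female CIH by more than 1.5 times. In male CIH it moved Slc2a5 (to -0.88), Hk2 (to -0.73), Eno3 (to -0.66), Pdk3 (to 0.51), Slc16a1 (to 0.39, adjusted p = 0.0428) and Mpc2 (to 0.27, adjusted p = 0.0439) by as much.

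In female WT NX vs 5XFAD NX, 6 of 34 members were significantly higher in 5XFAD, against 7.26% of 14513 genes, and 4 were lower, against 6.61%. With the larger fold change required, 3 members remained past the threshold (Gpi1, Pkm and Slc16a3), against 5.99% of genes. With library size scaling, 4 members were higher and 3 lower, against 4.71% and 5.48% of genes, and the calls of Pkm (adjusted p = 0.0569), Slc16a3 (adjusted p = 0.057) and Eno3 (adjusted p = 0.054) were among those lost. Leaving out the library labelled 5XFAD NX 4 gave 16 members higher and 5 lower, against 21.8% and 22.2% of 14149 genes. Leaving out WT NX 3 gave 0 members past the adjusted threshold, with 43 of 14277 genes past it. Leaving out any 1 of the other 7 (5XFAD NX 1, 2, 3 or 5, or WT NX 1, 2 or 4) gave 1 to 4 members, with 167 to 933 genes. Of the 10 calls, those of Pkm, Gpi1, Slc16a3, Slc16a1 and Pfkfb3 held in 1 of these 9 fits (without 5XFAD NX 4), those of Eno3 and Hk3 in 2, of Ldhb in 5, of Slc2a5 in 6 and of Slc2a3 in 7. The calls thus fell over all genes and not only among the members.

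The following 14 members were significantly higher in 5XFAD in all 3 of the female CIH, male NX and male CIH comparisons, which shared no library. These were Slc2a1 and Slc2a3 for glucose uptake, Gpi1, Pfkl, Aldoa, Tpi1, Pgk1, Pgam1, Eno1 and Pkm for the steps to pyruvate, Ldha for lactate production, Pdk3, a kinase that inactivates pyruvate dehydrogenase, and the lactate carriers Slc16a1 and Slc16a3. With library size scaling, Slc2a3 lost the call in male NX (adjusted p = 0.0627) and male CIH (log2 fold change 0.37, adjusted p = 0.131). Slc2a5 and Eno3 were the 2 members that were lower in all 3. The share of all genes called in the same direction in all 3 was not counted. The counts of 14 and 2 therefore stand without a background. For Eno3 in male CIH, the adjusted p was 0.0476, and the call held in only 2 of 10 fits that left out 1 library. None of the hexokinases was among the 14.

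The effect of CIH within a genotype was tested next. In female WT NX vs WT CIH, 0 of 34 members were past the threshold in edgeR, against 0% of 14583 genes in either direction, although 12 members and 565 genes had an unadjusted p under 0.05. The members' log2 fold changes were negative for 26 of 34, with a median of -0.11 against a median of -0.005 over all genes. Without WT NX 1, the highest of its group for 11 of the 14 members named above, the median was -0.064. In female 5XFAD NX vs 5XFAD CIH, 0 members were called, against 0% of 14578 genes, and 0 members and 470 genes had an unadjusted p under 0.05. In male 5XFAD NX vs 5XFAD CIH, 0 of 35 members were called, against 0% of 14334 genes, with 1 member (Pfkfb3) and 473 genes at an unadjusted p under 0.05. DESeq2 likewise called 0 members in these 3 comparisons.

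Male WT microglia differed with CIH. In male WT NX vs WT CIH, 9 of 35 members were significantly lower in CIH, against 15% of 14983 genes, and 2 were higher, against 13.6%. No member passed the larger fold change, which 2.51% of genes did. The 9 lower members were Aldoa, Eno1, Tpi1, Pkm, Gpi1, Ldha, Ldhb, Slc2a5 and Slc16a3, and the 2 higher members were Hk2 and Pfkfb2. With a gene-length offset, the calls of Hk2, Ldha and Ldhb were lost, 1 member was called higher and 10 lower, and all-gene calls fell from 4279 to 2778. The median was -0.20 for the members and -0.01 for all genes. When all 4 male groups shared one estimate of the spread, 0 members and 0 of 15813 genes passed, and the adjusted p of these 11 members was 0.0594 to 0.183.

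Glucose enters microglia through facilitative transporters. Slc2a1 codes for GLUT1, the common glucose transporter that is also abundant in brain endothelium. In females, Slc2a1 was 117, 61.4, 67.3 and 58.2 CPM in WT NX, 53.5, 45.8, 70.01, 70.5 and 74.2 in WT CIH, 149, 159, 134, 49.8 and 215 in 5XFAD NX and 138, 154, 138, 164 and 129.6 in 5XFAD CIH. All 5 female 5XFAD CIH libraries lay above the female WT CIH libraries, while 5XFAD NX 4 was the lowest female NX library of either genotype and WT NX 1 was far above the other WT NX libraries. In males, Slc2a1 was 54.8, 90.7, 67.6, 92.1 and 83.3 CPM in WT NX, 43.4, 62.3, 52.9, 70.4 and 64.04 in WT CIH, 148, 179, 209, 117 and 132 in 5XFAD NX and 109, 126, 119, 129 and 187 in 5XFAD CIH. Both male genotype comparisons were free of overlap. Slc2a1 was higher in 5XFAD in female CIH (log2 fold change 1.22 ± 0.12 (SE), adjusted p = 2.75e-06), male NX (log2 fold change 1.02 ± 0.18 (SE), adjusted p = 0.00205) and male CIH (log2 fold change 1.203 ± 0.15 (SE), adjusted p = 1.9e-05). In female NX the value was 0.89 ± 0.37 (SE), adjusted p = 0.118, and without 5XFAD NX 4 it was 1.10, adjusted p = 0.00373. Endothelial markers summed to 79.6 to 185 CPM in male 5XFAD NX and to 14.97 to 77.4 CPM in male 5XFAD CIH, and to 14.5 to 105 CPM in females. Their part in the Slc2a1 values was not tested.

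Slc2a3 codes for GLUT3, a high-affinity glucose transporter best known from neurons. In females, Slc2a3 was 12.7, 13.3, 11.8 and 12.7 CPM in WT NX, 13.2, 13.1, 11.9, 10.8 and 12.5 in WT CIH, 21.7, 26.5, 25.2, 16.6 and 32.5 in 5XFAD NX and 26.4, 26.3, 20.1, 26.4 and 27.9 in 5XFAD CIH. Here the library 5XFAD NX 4 lay between the genotypes, and the 2 groups of each treatment did not overlap. In males, Slc2a3 was 11.3, 7.93, 11.9, 9.87 and 15.7 CPM in WT NX, 10.9, 10.4, 10.6, 14.2 and 11.4 in WT CIH, 12.6, 27.5, 18.1, 21.1 and 27.6 in 5XFAD NX and 22.2, 26.3, 16.5, 15.5 and 14.1 in 5XFAD CIH. The genotypes overlapped in NX through 5XFAD NX 1 and WT NX 5, and in CIH through 5XFAD CIH 5 and WT CIH 4. Slc2a3 was higher in 5XFAD in female NX (log2 fold change 0.96 ± 0.17 (SE), adjusted p = 0.0175), female CIH (log2 fold change 1.06 ± 0.10 (SE), adjusted p = 1.25e-06), male NX (log2 fold change 0.92 ± 0.24 (SE), adjusted p = 0.0177) and male CIH (log2 fold change 0.73 ± 0.18 (SE), adjusted p = 0.00411). For Slc2a3, the female NX value without 5XFAD NX 4 was 1.06, adjusted p = 0.000136, and 7 of 9 fits without 1 library kept the call.

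Slc2a5, the microglial fructose transporter GLUT5, went the other way. In females, Slc2a5 was 536, 633, 686 and 592 CPM in WT NX, 592, 592, 621, 658 and 625 in WT CIH, 305, 323, 391, 430.1 and 277 in 5XFAD NX and 268, 335, 264, 320.5 and 281 in 5XFAD CIH. All WT libraries lay above all 5XFAD libraries, and 5XFAD NX 4 was the highest of the 5XFAD libraries but still below WT. In males, Slc2a5 was 731, 847, 904, 906 and 804 CPM in WT NX, 554, 644, 607, 503 and 459 in WT CIH, 531, 447, 452, 325 and 298 in 5XFAD NX and 350.5, 369, 406, 400.4 and 396 in 5XFAD CIH. The male WT NX libraries were the highest of all 4 male groups and overlapped none of them. Slc2a5 was lower in 5XFAD in female NX (log2 fold change -0.82 ± 0.15 (SE), adjusted p = 0.0175), female CIH (log2 fold change -1.06 ± 0.07 (SE), adjusted p = 1.04e-07), male NX (log2 fold change -1.03 ± 0.16 (SE), adjusted p = 0.000582) and male CIH (log2 fold change -0.51 ± 0.10 (SE), adjusted p = 0.000767). It was also lower with CIH in male WT (log2 fold change -0.602 ± 0.10 (SE), adjusted p = 0.000629). For Slc2a5, the female NX value without 5XFAD NX 4 was -0.92, adjusted p = 0.000247, and 6 of 9 fits without 1 library kept the call.

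Hexokinases trap glucose in the cell by phosphorylation. Hk2, the inducible and mitochondria-bound hexokinase, was called higher in 5XFAD in none of the 4 genotype comparisons. In females, Hk2 was 299, 323, 269 and 288 CPM in WT NX, 286, 296, 311, 304 and 307 in WT CIH, 277, 320.3, 363, 285 and 353 in 5XFAD NX and 257, 321, 300.2, 269.7 and 261 in 5XFAD CIH, and the 4 groups overlapped. In males, Hk2 was 219, 242, 210.1, 209 and 199 CPM in WT NX, 248, 267, 276, 255 and 252 in WT CIH, 196, 221, 212, 254 and 261 in 5XFAD NX and 195, 245, 196, 179 and 183 in 5XFAD CIH. The male WT CIH libraries lay above all WT NX and all 5XFAD CIH libraries. Hk2 was higher with CIH in male WT (log2 fold change 0.27 ± 0.08 (SE), adjusted p = 0.0155) and lower in 5XFAD than in WT in male CIH (log2 fold change -0.37 ± 0.10 (SE), adjusted p = 0.00712), and these 2 comparisons share the WT CIH libraries. The adjusted p for Hk2 was 0.448 in female NX, 0.334 in female CIH and 0.666 in male NX. With library size scaling, Hk2 was also lower in 5XFAD in female CIH (log2 fold change -0.27, adjusted p = 0.01), and its male CIH value was -0.73. For Hk2, the female NX value without 5XFAD NX 4 was 0.15, adjusted p = 0.245. Hk3, a hexokinase of myeloid cells, was lower in 5XFAD in females in NX (log2 fold change -0.34 ± 0.08 (SE), adjusted p = 0.0271) and CIH (log2 fold change -0.34 ± 0.06 (SE), adjusted p = 0.00036), with values of -0.295 ± 0.10 (SE), adjusted p = 0.059 in male NX and -0.195 ± 0.12 (SE), adjusted p = 0.179 in male CIH. For Hk3, the female NX value without 5XFAD NX 4 was -0.34, adjusted p = 0.00446, and 2 of 9 fits without 1 library kept the call. Hk1, the housekeeping form, passed the threshold in none of the 8 pairwise comparisons with TMM scaling, with log2 fold changes from -0.28 to 0.24.

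Gpi1 converts glucose-6-phosphate to fructose-6-phosphate. In females, Gpi1 was 202, 139.9, 155 and 146 CPM in WT NX, 132, 129, 140.4, 146 and 142 in WT CIH, 498, 526, 345, 126 and 531 in 5XFAD NX and 422, 396, 364, 479 and 469 in 5XFAD CIH. In males, Gpi1 was 152, 171, 182, 198 and 201 CPM in WT NX, 156, 144, 148, 144 and 127 in WT CIH, 518, 539.7, 573, 311 and 359 in 5XFAD NX and 509, 505, 467, 512 and 651 in 5XFAD CIH. Apart from female 5XFAD NX 4, every 5XFAD library lay above every WT library of its sex. Gpi1 was higher in 5XFAD in female NX (log2 fold change 1.33 ± 0.36 (SE), adjusted p = 0.0419), female CIH (log2 fold change 1.64 ± 0.08 (SE), adjusted p = 4.41e-09), male NX (log2 fold change 1.35 ± 0.17 (SE), adjusted p = 0.000147) and male CIH (log2 fold change 1.89 ± 0.10 (SE), adjusted p = 5.58e-09), and lower with CIH in male WT (log2 fold change -0.33 ± 0.09 (SE), adjusted p = 0.0126). For Gpi1, the female NX value without 5XFAD NX 4 was 1.55, adjusted p = 7.07e-05, and the call was lost on leaving out any other library.

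Phosphofructokinase commits sugar to glycolysis, and its liver-type subunit Pfkl was the one that differed. In females, Pfkl was 168, 135, 133 and 109.96 CPM in WT NX, 100.5, 94.7, 96.8, 126 and 108 in WT CIH, 259.6, 241, 214, 103 and 324 in 5XFAD NX and 208, 253, 257, 290.3 and 253 in 5XFAD CIH. In males, Pfkl was 101, 126, 94.6, 104 and 109 CPM in WT NX, 107, 121, 109, 87.2 and 74.1 in WT CIH, 215, 251, 282, 174 and 239 in 5XFAD NX and 261, 221, 192, 224 and 288 in 5XFAD CIH. The genotypes did not overlap in female CIH, male NX or male CIH. Pfkl was higher in 5XFAD in these 3 comparisons, with log2 fold changes of 1.28 ± 0.10 (SE), adjusted p = 1.8e-07 in female CIH, 1.12 ± 0.14 (SE), adjusted p = 0.000103 in male NX and 1.26 ± 0.14 (SE), adjusted p = 4.74e-06 in male CIH. In female NX, Pfkl had a log2 fold change of 0.74 ± 0.27 (SE), adjusted p = 0.0902, and of 0.92, adjusted p = 0.000913 without 5XFAD NX 4. The muscle-type subunit Pfkm and the platelet-type subunit Pfkp were called in no comparison. In females, Pfkp was 23.7, 8.39, 9.93 and 5.71 CPM in WT NX, 5.801, 4.99, 11.2, 9.87 and 9.902 in WT CIH, 6.43, 6.45, 9.62, 5.11 and 11.1 in 5XFAD NX and 6.81, 8.73, 11.3, 10.9 and 10.8 in 5XFAD CIH. In males, Pfkp was 7.01, 9.25, 7.902, 8.66 and 8.03 CPM in WT NX, 6.07, 6.56, 6.801, 8.21 and 7.61 in WT CIH, 5.65, 11.4, 7.19, 6.79 and 10.9 in 5XFAD NX and 5.48, 9.13, 10.2, 7.78 and 4.67 in 5XFAD CIH. Its groups overlapped, with female WT NX 1 the highest library.

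The Pfkfb enzymes set the level of fructose-2,6-bisphosphate, the activator of phosphofructokinase, and Pfkfb3 is the form with the highest kinase activity. In females, Pfkfb3 was 245, 228, 217 and 246 CPM in WT NX, 225, 204, 206, 227 and 214 in WT CIH, 367, 407, 360.2, 225 and 388 in 5XFAD NX and 358, 365, 367, 307 and 371 in 5XFAD CIH. The library 5XFAD NX 4 again lay with WT, and 5XFAD CIH 4 was the lowest of its group. In males, Pfkfb3 was 195, 179.6, 181, 160.5 and 173 CPM in WT NX, 195, 207, 163, 157 and 140.4 in WT CIH, 207, 233, 252, 348 and 299.6 in 5XFAD NX and 204, 196, 203, 189 and 215 in 5XFAD CIH. In male 5XFAD NX, libraries 4 and 5 were the highest, whereas the same libraries were the 2 lowest of their group for Pkm, Aldoa, Tpi1 and Ldha. Pfkfb3 was higher in 5XFAD in female NX (log2 fold change 0.58 ± 0.15 (SE), adjusted p = 0.0401), female CIH (log2 fold change 0.73 ± 0.06 (SE), adjusted p = 5.74e-07) and male NX (log2 fold change 0.595 ± 0.14 (SE), adjusted p = 0.0107), and the value in male CIH was 0.24 ± 0.11 (SE), adjusted p = 0.0804. The male NX call was lost with library size scaling (adjusted p = 0.117). For Pfkfb3, the female NX value without 5XFAD NX 4 was 0.69, adjusted p = 7.42e-05, and the call was lost on leaving out any other library.

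Pfkfb2, a form best known from heart, was highest on average in WT CIH among the male groups. In males, Pfkfb2 was 15.3, 13.2, 11.3, 8.79 and 14.5 CPM in WT NX, 16.95, 23.9, 21.5, 26.3 and 19.3 in WT CIH, 9.36, 9.48, 8.97, 19.5 and 20.9 in 5XFAD NX and 9.88, 11.3, 10.5, 11.4 and 8.62 in 5XFAD CIH. The WT CIH libraries lay above WT NX and above 5XFAD CIH, while 5XFAD NX overlapped each of the other 3 groups and reached the level of WT CIH in libraries 4 and 5. Pfkfb2 was higher with CIH in male WT (log2 fold change 0.77 ± 0.16 (SE), adjusted p = 0.00257) and lower in 5XFAD than in WT in male CIH (log2 fold change -1.05 ± 0.14 (SE), adjusted p = 3.6e-05). In females, Pfkfb2 was 49.7, 61.8, 47.6 and 55.8 CPM in WT NX, 55.9, 59.1, 58.7, 52.8 and 53.5 in WT CIH, 47.9, 48.5, 60.98, 62.2 and 53.5 in 5XFAD NX and 50.9, 56.8, 56.2, 45.5 and 46.1 in 5XFAD CIH, with adjusted p = 0.893 for genotype in NX and 0.199 in CIH. For Pfkfb2, the female NX value without 5XFAD NX 4 was -0.04, adjusted p = 0.809. Pfkfb4 was lower in 5XFAD in female CIH (log2 fold change -0.26 ± 0.07 (SE), adjusted p = 0.00731). In female NX, Pfkfb4 had a log2 fold change of -0.27 ± 0.09 (SE), adjusted p = 0.0686, and of -0.295, adjusted p = 0.0221 without 5XFAD NX 4. Among these enzymes, Pfkfb1 was called in no comparison.

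Aldolase and triosephosphate isomerase split the sugar and interconvert the products. In females, Aldoa was 501, 308, 345 and 293 CPM in WT NX, 262, 264, 270.4, 326 and 277 in WT CIH, 1006, 1072, 696, 249 and 1069 in 5XFAD NX and 808, 799, 738, 963 and 934 in 5XFAD CIH. In males, Aldoa was 361, 444, 405, 528 and 462 CPM in WT NX, 336, 317, 289.6, 254 and 254 in WT CIH, 1352, 1378, 1534, 723 and 805 in 5XFAD NX and 1267, 1212, 1193, 1381 and 1903 in 5XFAD CIH. The male groups fell in 3 separate ranges, with WT CIH below WT NX and both below all 5XFAD libraries, among which 5XFAD CIH 5 was the highest. Aldoa was higher in 5XFAD in female CIH (log2 fold change 1.62 ± 0.09 (SE), adjusted p = 1.29e-08), male NX (log2 fold change 1.398 ± 0.21 (SE), adjusted p = 0.000485) and male CIH (log2 fold change 2.27 ± 0.14 (SE), adjusted p = 1.71e-08), and lower with CIH in male WT (log2 fold change -0.601 ± 0.11 (SE), adjusted p = 0.00108). The female NX value was 1.17 ± 0.38 (SE), adjusted p = 0.0633, and without 5XFAD NX 4 it was 1.40, adjusted p = 0.000356.

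Tpi1 showed the largest log2 fold changes of all members in both CIH genotype comparisons. In females, Tpi1 was 143, 76.6, 95.8 and 70.6 CPM in WT NX, 64.95, 58.4, 59.99, 84.5 and 74.9 in WT CIH, 333, 328, 233, 65.2 and 378 in 5XFAD NX and 252, 249.8, 248, 336 and 307 in 5XFAD CIH. In males, Tpi1 was 90.8, 103, 90.4, 117 and 133 CPM in WT NX, 78.4, 78.9, 84.9, 62.5 and 59.9 in WT CIH, 416, 469, 518, 226 and 276 in 5XFAD NX and 414, 345, 331, 457 and 663 in 5XFAD CIH. Outside female NX, no 5XFAD library overlapped WT, and the male WT CIH libraries lay below WT NX. Tpi1 was higher in 5XFAD in female CIH (log2 fold change 2.04 ± 0.12 (SE), adjusted p = 2.15e-08), male NX (log2 fold change 1.83 ± 0.22 (SE), adjusted p = 8.75e-05) and male CIH (log2 fold change 2.61 ± 0.18 (SE), adjusted p = 4.64e-08). It was lower with CIH in male WT (log2 fold change -0.55 ± 0.12 (SE), adjusted p = 0.0037). In female NX, Tpi1 had a log2 fold change of 1.47 ± 0.44 (SE), adjusted p = 0.0513, and of 1.71, adjusted p = 0.000268 without 5XFAD NX 4.

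Pgk1 makes the first ATP of glycolysis, and Pgam1 moves the phosphate for the next step. In females, Pgk1 was 136, 60.8, 77.8 and 61.9 CPM in WT NX, 51.2, 49.9, 55.8, 65.6 and 51.6 in WT CIH, 254, 253, 183, 49.9 and 297 in 5XFAD NX and 189, 189, 194, 282 and 247 in 5XFAD CIH. In males, Pgk1 was 45.1, 61.9, 53.2, 61.1 and 60.8 CPM in WT NX, 40.9, 46.2, 53.3, 48.9 and 51.3 in WT CIH, 193, 245, 251, 169.9 and 209 in 5XFAD NX and 247, 208, 183, 200.03 and 292 in 5XFAD CIH. WT NX 1 stood above the other female WT NX libraries for both genes. Pgk1 was higher in 5XFAD in female CIH (log2 fold change 2.02 ± 0.12 (SE), adjusted p = 3.44e-08), male NX (log2 fold change 1.92 ± 0.14 (SE), adjusted p = 1.41e-06) and male CIH (log2 fold change 2.24 ± 0.13 (SE), adjusted p = 7.94e-09). In female NX, Pgk1 had a log2 fold change of 1.29 ± 0.45 (SE), adjusted p = 0.0785, and of 1.54, adjusted p = 0.00103 without 5XFAD NX 4. In females, Pgam1 was 115, 62.4, 65.4 and 57.7 CPM in WT NX, 47.8, 52.2, 54.6, 63.9 and 55.6 in WT CIH, 172, 167, 139, 50.9 and 203 in 5XFAD NX and 117, 144, 152, 176 and 171 in 5XFAD CIH. In males, Pgam1 was 48.03, 66.5, 58.5, 54.5 and 55.3 CPM in WT NX, 55.7, 57.5, 53.4, 40.4 and 43.3 in WT CIH, 128, 131, 152, 115 and 130.4 in 5XFAD NX and 146, 134, 116, 121 and 135 in 5XFAD CIH, with no overlap of the genotypes. Pgam1 was higher in 5XFAD in female CIH (log2 fold change 1.48 ± 0.11 (SE), adjusted p = 1.57e-07), male NX (log2 fold change 1.22 ± 0.12 (SE), adjusted p = 1.42e-05) and male CIH (log2 fold change 1.39 ± 0.12 (SE), adjusted p = 2.86e-07). In female NX, Pgam1 had a log2 fold change of 0.96 ± 0.36 (SE), adjusted p = 0.0932, and of 1.17, adjusted p = 0.00168 without 5XFAD NX 4. Neither gene was called with CIH in male WT.

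Gapdh, the dehydrogenase between Tpi1 and Pgk1, was erratic. In females, Gapdh was 12.6, 15.2, 48.8 and 17.01 CPM in WT NX, 14.2, 16.8, 13.99, 13.2 and 11.2 in WT CIH, 16.6, 153, 18.2, 52.9 and 19.1 in 5XFAD NX and 15.4, 17.8, 82.8, 18.5 and 28.6 in 5XFAD CIH. In males, Gapdh was 20.1, 18.3, 114, 26.8 and 26.1 CPM in WT NX, 24.8, 19.3, 14.4, 42.4 and 17.1 in WT CIH, 148, 27.5, 34.7, 23.2 and 24.8 in 5XFAD NX and 29.6, 18.6, 26.3, 24.3 and 36.4 in 5XFAD CIH. In 5 of the 8 groups a single library stood far above the others. Gapdh was higher in 5XFAD only in female CIH (log2 fold change 1.25 ± 0.40 (SE), adjusted p = 0.0197), where WT CIH and 5XFAD CIH overlapped. Without 5XFAD CIH 3 that value was 0.55, and with all 4 female groups in 1 fit its adjusted p was 0.11. In female NX, Gapdh had a log2 fold change of 1.15 ± 0.74 (SE), adjusted p = 0.295, and of 1.13, adjusted p = 0.256 without 5XFAD NX 4. Gapdh has many near-identical copies in the genome, and how reads were shared among copies is not given in the sources used here, so its counts are uncertain.

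Enolases convert 2-phosphoglycerate to phosphoenolpyruvate, and the broadly expressed Eno1 and the muscle form Eno3 moved in opposite directions. In females, Eno1 was 409, 249, 285 and 241 CPM in WT NX, 223, 203, 211, 252 and 239 in WT CIH, 628, 592, 446, 193 and 635 in 5XFAD NX and 477, 475, 466, 566 and 567 in 5XFAD CIH. In males, Eno1 was 309, 392, 361, 413 and 402 CPM in WT NX, 272, 279.5, 257, 221 and 238 in WT CIH, 826, 795, 869, 459.9 and 499 in 5XFAD NX and 780.5, 721, 699.6, 822 and 1066 in 5XFAD CIH. Eno1 was higher in 5XFAD in female CIH (log2 fold change 1.19 ± 0.08 (SE), adjusted p = 8.58e-08), male NX (log2 fold change 0.88 ± 0.18 (SE), adjusted p = 0.00514) and male CIH (log2 fold change 1.699 ± 0.12 (SE), adjusted p = 6.14e-08). With CIH in male WT it was lower (log2 fold change -0.57 ± 0.09 (SE), adjusted p = 0.000669), and WT NX and WT CIH did not overlap. In female NX, Eno1 had a log2 fold change of 0.75 ± 0.32 (SE), adjusted p = 0.129, and of 0.95, adjusted p = 0.00202 without 5XFAD NX 4. Eno3 was lower in 5XFAD in female NX (log2 fold change -0.59 ± 0.15 (SE), adjusted p = 0.0346), female CIH (log2 fold change -0.51 ± 0.08 (SE), adjusted p = 0.000199), male NX (log2 fold change -0.64 ± 0.11 (SE), adjusted p = 0.00116) and male CIH (log2 fold change -0.29 ± 0.11 (SE), adjusted p = 0.0476). For Eno3, the female NX value without 5XFAD NX 4 was -0.702, adjusted p = 0.00147, and 2 of 9 fits without 1 library kept the call. Within a library, the FPKM ratio of Eno1 to Eno3 was 2.32 to 3.34 in female WT CIH and 7.36 to 12.1 in 5XFAD CIH, and 2.19 to 3.04 in male WT NX and 5.63 to 10 in 5XFAD NX. In female NX the genotypes overlapped, with 2.72 to 5.94 in WT and 2.79 to 13.7 in 5XFAD, and in male CIH the ratio was 1.78 to 2.63 in WT and 7.17 to 9.99 in 5XFAD. Eno2, the neuronal enolase, was called in no comparison. In females, Eno2 was 3.97, 3.59, 2.82 and 1.33 CPM in WT NX, 3.19, 3.21, 2.76, 1.64 and 2.48 in WT CIH, 2.65, 1.597, 2.72, 2.59 and 3.64 in 5XFAD NX and 4.11, 4.29, 5.24, 2.495 and 2.43 in 5XFAD CIH. In males, Eno2 was 5.33, 2.804, 3.01, 3.22 and 3.27 CPM in WT NX, 2.81, 1.77, 3.08, 1.63 and 3.06 in WT CIH, 1.32, 5.71, 6.11, 3.66 and 4.93 in 5XFAD NX and 1.93, 4.11, 4.497, 2.58 and 5.32 in 5XFAD CIH, and its groups overlapped.

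Pkm, the pyruvate kinase of most tissues, completes the pathway. In females, Pkm was 551, 308, 334 and 295 CPM in WT NX, 262, 243, 268, 315 and 290.2 in WT CIH, 1317, 1193, 886, 270.3 and 1366 in 5XFAD NX and 966, 943, 902, 1187 and 1163 in 5XFAD CIH. In males, Pkm was 289, 338, 330.1, 341 and 374 CPM in WT NX, 249, 266, 251, 228 and 226 in WT CIH, 1209, 1206, 1416, 859 and 865 in 5XFAD NX and 1218, 1205, 1023, 1081 and 1549.8 in 5XFAD CIH. Every 5XFAD library other than female 5XFAD NX 4 lay above every WT library of its sex, and male WT CIH lay below male WT NX. Pkm was higher in 5XFAD in female NX (log2 fold change 1.43 ± 0.42 (SE), adjusted p = 0.0486), female CIH (log2 fold change 1.92 ± 0.10 (SE), adjusted p = 5.85e-09), male NX (log2 fold change 1.73 ± 0.15 (SE), adjusted p = 6.81e-06) and male CIH (log2 fold change 2.33 ± 0.12 (SE), adjusted p = 2.05e-09), which corresponds to 3.79-fold, 3.32-fold and 5.01-fold in the last 3. With CIH in male WT, Pkm was lower (log2 fold change -0.45 ± 0.08 (SE), adjusted p = 0.00108). For Pkm, the female NX value without 5XFAD NX 4 was 1.67, adjusted p = 0.000242, and the call was lost on leaving out any other library. The FPKM ratio of Pkm to Hk2, the last and first kinases, was 1.58 to 2.25 in male WT NX, 1.07 to 1.2 in male WT CIH, 3.96 to 7.97 in male 5XFAD NX and 5.87 to 10.1 in male 5XFAD CIH. Male WT NX and WT CIH did not overlap in it. In females the ratio was 1.71 to 3.3 in WT NX, 1.47 to 1.85 in WT CIH, 1.7 to 8.51 in 5XFAD NX and 5.26 to 7.96 in 5XFAD CIH, with WT NX overlapping both WT CIH and 5XFAD NX.

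**Figure D2:**
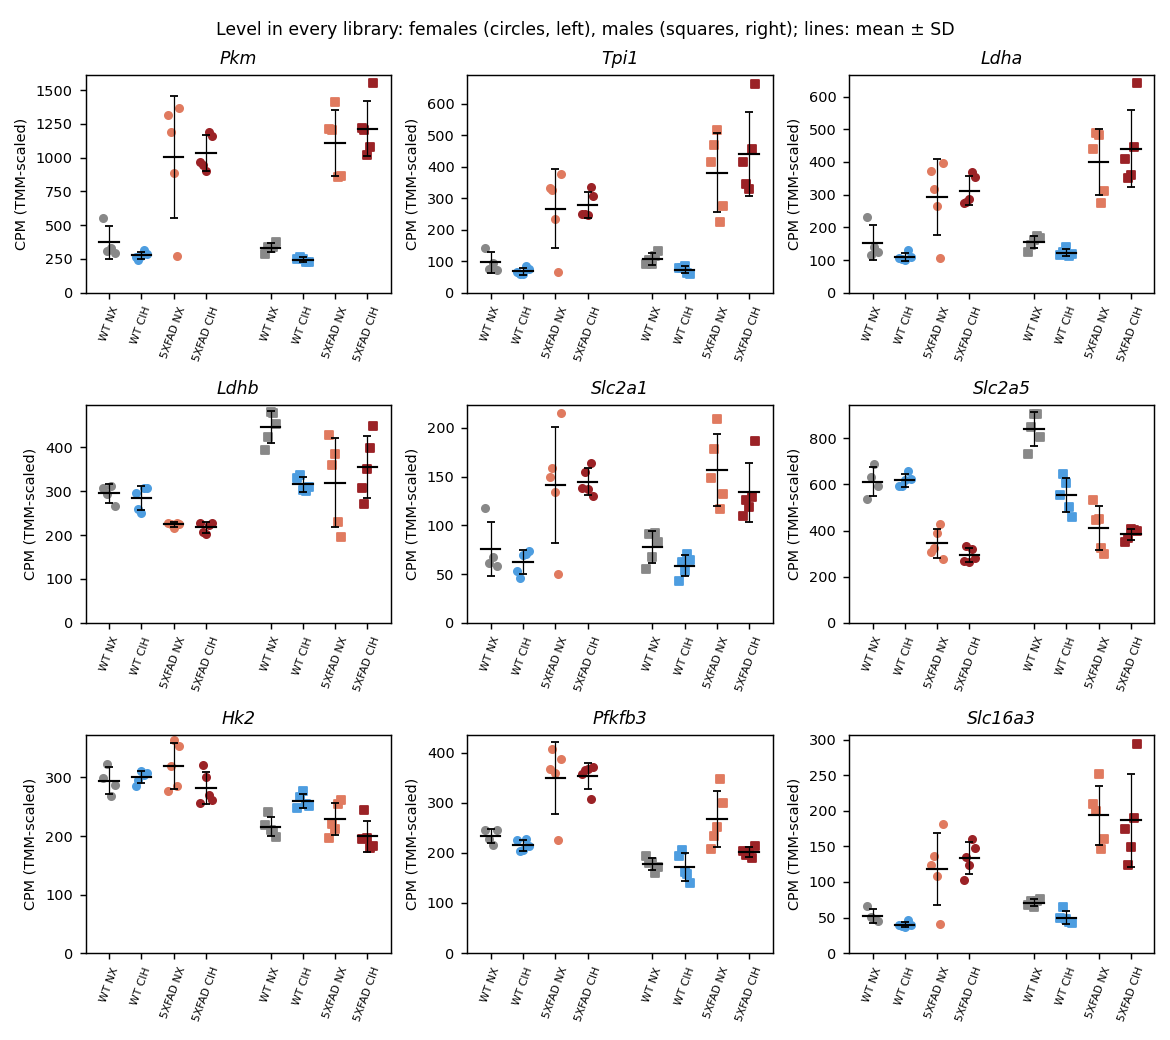
TMM-scaled CPM of 9 members in every library (circles for females, squares for males; horizontal lines show the mean and vertical lines the SD; linear axes from 0). Pkm, Tpi1, Ldha, Slc2a1 and Slc16a3 are higher in 5XFAD with 1 low female 5XFAD NX library (270 CPM for Pkm), Slc2a5 is lower, and Hk2 is highest in male WT CIH among the male group means.

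The lactate dehydrogenase subunits parted. Ldha codes for the muscle-type subunit that favours lactate formation, and Ldhb for the heart-type subunit that favours lactate use. In females, Ldha was 231, 116, 139 and 125 CPM in WT NX, 105, 103, 98.96, 131 and 111 in WT CIH, 373, 316, 266, 106 and 398 in 5XFAD NX and 276, 277, 288, 368 and 354 in 5XFAD CIH. In males, Ldha was 125, 147, 161, 174 and 167 CPM in WT NX, 114, 125, 139, 111 and 119 in WT CIH, 440.4, 489.9, 482, 273 and 312 in 5XFAD NX and 409, 349, 359, 444 and 640.3 in 5XFAD CIH. The genotypes did not overlap except in female NX, where 5XFAD NX 4 lay below all WT NX libraries. Ldha was higher in 5XFAD in female CIH (log2 fold change 1.52 ± 0.10 (SE), adjusted p = 7.83e-08), male NX (log2 fold change 1.37 ± 0.17 (SE), adjusted p = 0.000134) and male CIH (log2 fold change 1.86 ± 0.15 (SE), adjusted p = 1.83e-07), and lower with CIH in male WT (log2 fold change -0.35 ± 0.10 (SE), adjusted p = 0.0144). The last call was lost with library size scaling (adjusted p = 0.0524). In female NX, Ldha had a log2 fold change of 0.93 ± 0.35 (SE), adjusted p = 0.0965, and of 1.14, adjusted p = 0.00219 without 5XFAD NX 4. In females, Ldhb was 307, 293, 312 and 265 CPM in WT NX, 296, 258, 250.5, 307 and 307 in WT CIH, 227, 226, 215, 228 and 224 in 5XFAD NX and 227, 207, 202, 222 and 228 in 5XFAD CIH. All female WT libraries lay above all 5XFAD libraries, 5XFAD NX 4 included. In males, Ldhb was 394, 422, 479.5, 478 and 453 CPM in WT NX, 329.9, 336, 303, 299.7 and 309 in WT CIH, 427, 359, 384, 229.8 and 196 in 5XFAD NX and 307, 272, 351, 397 and 447 in 5XFAD CIH. Male 5XFAD libraries spread from 196 to 447 CPM and overlapped both WT groups. Ldhb was lower in 5XFAD in female NX (log2 fold change -0.39 ± 0.08 (SE), adjusted p = 0.0185) and female CIH (log2 fold change -0.37 ± 0.07 (SE), adjusted p = 0.000715), and the male values were -0.48 ± 0.19 (SE), adjusted p = 0.115 in NX and 0.18 ± 0.12 (SE), adjusted p = 0.234 in CIH. For Ldhb, the female NX value without 5XFAD NX 4 was -0.41, adjusted p = 0.00119, and 5 of 9 fits without 1 library kept the call. With CIH in male WT, Ldhb was lower (log2 fold change -0.499 ± 0.08 (SE), adjusted p = 0.000566), without overlap.

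Within each library, the FPKM ratio of Ldha to Ldhb was 0.201 to 0.381 in female WT NX, 0.18 to 0.216 in WT CIH, 0.236 to 0.898 in 5XFAD NX and 0.614 to 0.839 in 5XFAD CIH. In males the ratio was 0.15 to 0.175, 0.164 to 0.217, 0.489 to 0.756 and 0.486 to 0.679 in the same order of groups. The genotypes were separate in males and in female CIH, and the ratio was below 1 in every library. These ratios were chosen after the values were seen and carry no test.

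**Figure D3:**
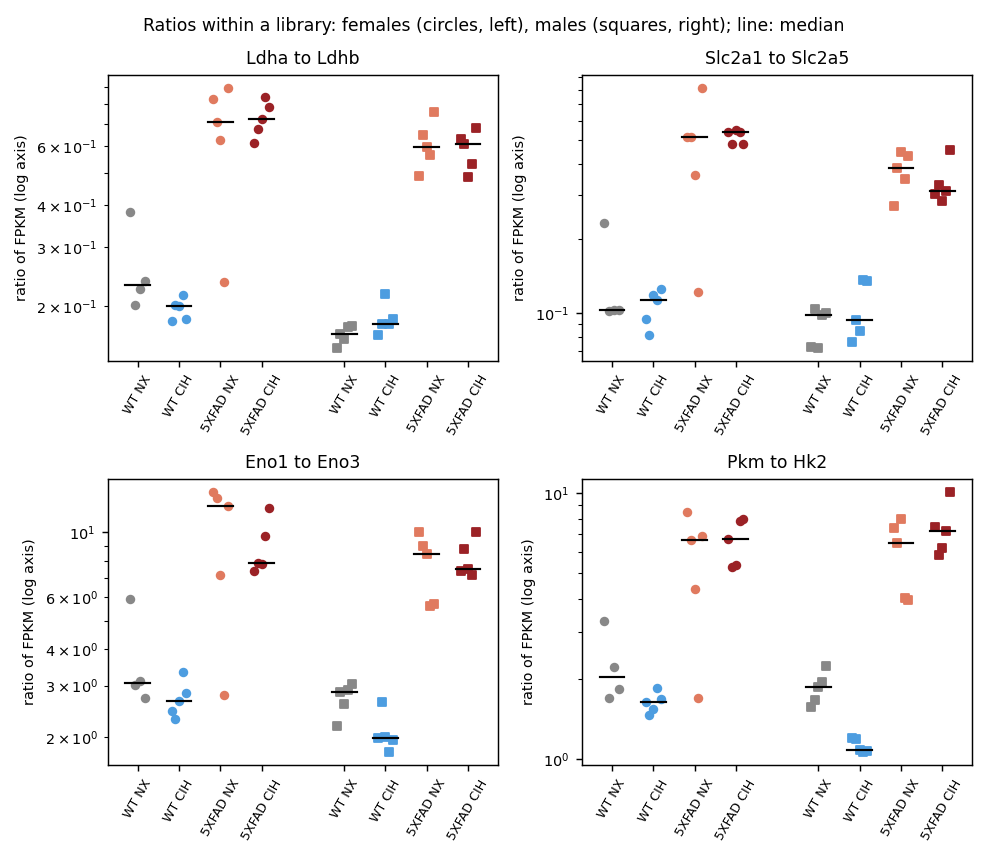
FPKM ratio of member pairs in every library (log axes; circles for females, squares for males; lines show the group median). Ldha to Ldhb runs from 0.15 to 0.217 in male WT and from 0.486 to 0.756 in male 5XFAD, and Pkm to Hk2 is lower in male WT CIH than in male WT NX.

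The fate of pyruvate in mitochondria is set by the carrier subunits Mpc1 and Mpc2, by pyruvate dehydrogenase (Pdha1, Pdhb) and by the kinases Pdk1 to Pdk4 that switch it off. Pdk1 is also a HIF target. In females, Pdk1 was 167, 188, 173 and 187 CPM in WT NX, 205, 193, 159.5, 188 and 173 in WT CIH, 206, 223, 204, 169.6 and 243 in 5XFAD NX and 219, 201, 219, 219 and 211 in 5XFAD CIH. In males, Pdk1 was 134, 135, 139.6, 109 and 121 CPM in WT NX, 132, 155, 138, 134 and 116 in WT CIH, 133, 158, 148, 215 and 212 in 5XFAD NX and 133, 131, 149, 144 and 185 in 5XFAD CIH, with libraries 4 and 5 the highest in 5XFAD NX. Pdk1 was higher in 5XFAD in female CIH (log2 fold change 0.23 ± 0.07 (SE), adjusted p = 0.0112), and the values elsewhere were 0.23 ± 0.10 (SE), adjusted p = 0.147 in female NX, 0.44 ± 0.15 (SE), adjusted p = 0.0593 in male NX and 0.15 ± 0.11 (SE), adjusted p = 0.271 in male CIH. Without 5XFAD NX 4, Pdk1 was higher in female NX (0.28, adjusted p = 0.013). With library size scaling, the female CIH value of Pdk1 was 0.04, adjusted p = 0.636, and the male CIH value was -0.234, adjusted p = 0.0377. Pdk3 was higher in 5XFAD in female CIH (log2 fold change 0.77 ± 0.09 (SE), adjusted p = 9.43e-06), male NX (log2 fold change 0.76 ± 0.16 (SE), adjusted p = 0.00464) and male CIH (log2 fold change 0.901 ± 0.14 (SE), adjusted p = 9.28e-05), and the groups did not overlap. In female NX, Pdk3 had a log2 fold change of 0.45 ± 0.17 (SE), adjusted p = 0.0895, and of 0.57, adjusted p = 0.0015 without 5XFAD NX 4. Pdk2 was called in no comparison. Pdk4 was below the filter on low counts in females and was not called in males. Pdha1 was higher in 5XFAD in female CIH (log2 fold change 0.25 ± 0.09 (SE), adjusted p = 0.0409). This call was lost with library size scaling (0.05, adjusted p = 0.61), with all 4 groups in 1 fit (adjusted p = 0.0869) and without any 1 of 5XFAD CIH 1, 4 or 5 or WT CIH 1, 2 or 3 (0.191 to 0.236). Pdhb and Mpc1 were called in no comparison. Mpc2 was higher in 5XFAD in male CIH (log2 fold change 0.65 ± 0.13 (SE), adjusted p = 0.00067; 0.27, adjusted p = 0.0439 with library size scaling), and its female CIH value was 0.12 ± 0.12 (SE), adjusted p = 0.434.

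Lactate leaves or enters cells with a proton through the monocarboxylate transporters MCT4, coded by Slc16a3 and typical of lactate-exporting cells, and MCT1, coded by Slc16a1. In females, Slc16a3 was 66.7, 50.1, 48.2 and 45.3 CPM in WT NX, 39.98, 37.98, 36.4, 46.6 and 39.3 in WT CIH, 124, 137, 108, 40.9 and 181 in 5XFAD NX and 103, 136, 123, 160.1 and 148 in 5XFAD CIH. In males, Slc16a3 was 67.99, 73.3, 64.2, 73.2 and 75.8 CPM in WT NX, 49.2, 64.8, 47.5, 43.2 and 42.7 in WT CIH, 209, 199, 252, 147 and 159.99 in 5XFAD NX and 175, 124, 149.6, 190.1 and 294 in 5XFAD CIH. All 5XFAD libraries but female 5XFAD NX 4 lay above all WT libraries of their sex. Slc16a3 was higher in 5XFAD in female NX (log2 fold change 1.17 ± 0.34 (SE), adjusted p = 0.0488), female CIH (log2 fold change 1.76 ± 0.11 (SE), adjusted p = 4.08e-08), male NX (log2 fold change 1.45 ± 0.15 (SE), adjusted p = 1.98e-05) and male CIH (log2 fold change 1.92 ± 0.20 (SE), adjusted p = 2.27e-06). It was lower with CIH in male WT (log2 fold change -0.52 ± 0.11 (SE), adjusted p = 0.00271). For Slc16a3, the female NX value without 5XFAD NX 4 was 1.38, adjusted p = 0.000187, and the call was lost on leaving out any other library. In females, Slc16a1 was 21.8, 19.3, 22.8 and 19.8 CPM in WT NX, 18.5, 19.7, 20.8, 20.2 and 19.2 in WT CIH, 47.7, 49.8, 41.3, 19.2 and 51.2 in 5XFAD NX and 44.6, 50.2, 35.03, 53.5 and 52.9 in 5XFAD CIH. In males, Slc16a1 was 13.2, 20.6, 16.3, 23.5 and 19.2 CPM in WT NX, 15.1, 20.7, 26.4, 23.4 and 26.3 in WT CIH, 32.98, 43.03, 36.4, 38.5 and 37.6 in 5XFAD NX and 40.9, 35.5, 34.03, 41.3 and 37.7 in 5XFAD CIH. The genotypes were separate in female CIH and in both male treatments. Slc16a1 was higher in 5XFAD in female NX (log2 fold change 0.99 ± 0.24 (SE), adjusted p = 0.0326), female CIH (log2 fold change 1.28 ± 0.11 (SE), adjusted p = 5.03e-07), male NX (log2 fold change 1.03 ± 0.16 (SE), adjusted p = 0.00069) and male CIH (log2 fold change 0.77 ± 0.14 (SE), adjusted p = 0.000452). For Slc16a1, the female NX value without 5XFAD NX 4 was 1.17, adjusted p = 1.44e-05, and the call was lost on leaving out any other library. MCT1 is also abundant in brain endothelium, and the endothelial marker sums given with Slc2a1 apply here as well. Their part was not tested.

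Whether the genotype effect differed between NX and CIH was tested as an interaction. In females, 0 of 34 members passed, against 0% of 15582 genes, and 0 members and 589 genes had an unadjusted p under 0.05. In males, 0 of 35 members passed in edgeR's quasi-likelihood test, against 0% of 15813 genes, while 11 members and 3857 genes had an unadjusted p under 0.05. The smallest adjusted p among male members was 0.117, shared by Aldoa (interaction log2 fold change 0.86), Eno1 (0.81), Hk2 (-0.46) and Pfkfb2 (-1.18). DESeq2 called 5 male members, Aldoa, Eno1 and Pkm with a positive and Hk2 and Pfkfb2 with a negative interaction, and edgeR's likelihood ratio test called 2, Eno1 and Pfkfb2. Over all genes, these tests called 945 (3.83% positive and 2.15% negative) and 248. The male CIH genotype comparison and the CIH comparison in male WT share the WT CIH libraries.

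Markers of the labelled and of other cells differed between groups as well. Of the 10 microglia markers, 5 were lower in 5XFAD in female NX and male CIH, and 6 in female CIH and male NX, while 1 was higher in female CIH and 2 in male CIH. Of all genes, 7.26% were called higher and 6.61% lower in female NX, 26.2% and 25.7% in female CIH, 10.4% and 7.37% in male NX, and 25.3% and 23.7% in male CIH, and the marker counts between genotypes stand against these shares. With CIH in male WT, neutrophil markers summed to 235 to 1226 CPM in male WT NX and 109 to 322 CPM in male WT CIH, and 6 of the 8 were significantly lower in CIH. Endothelial markers summed to 27.1 to 180 CPM and 21.9 to 110 CPM, with 0 of 12 called. In the same comparison, 4 of 10 microglia markers and 3 of 8 border macrophage markers were lower, and 2 of 7 astrocyte and 2 of 8 oligodendrocyte markers were higher, against 15% of all genes lower and 13.6% higher. There, 1 of 5 erythroid markers was lower, with all 5 values negative, and 1 of 10 genes induced by tissue dissociation was higher. Between genotypes, border macrophage markers were lower in 5XFAD (7 of 8 in each female comparison, 6 of 8 in male NX and 4 of 8 in male CIH), and the astrocyte list summed to 158 to 222 CPM in female WT and 138 to 644 CPM in female 5XFAD. In males, the astrocyte list summed to 132 to 222 CPM in WT and 220 to 1003 CPM in 5XFAD. Gene by gene, 1 of 8 astrocyte markers was higher and 1 lower in female NX, 4 were higher and 1 lower in female CIH, 3 were higher and 1 lower in male NX, and 2 were higher and 3 lower in male CIH. Of oligodendrocyte markers, 3 of 8 were higher in male NX and 2 of 8 in male CIH, the last at the share of all genes, and of 7 in females 1 was lower in NX and 1 higher and 1 lower in CIH. Neutrophil markers were lower in 5XFAD in female CIH (3 of 7, with all 7 values negative) and male CIH (3 of 8, with all 8 values negative), and 0 were called in NX, where all 8 values were negative in males. Of 5 erythroid markers, 2 were lower in male NX, and of neuronal markers 1 of 6 was lower in female CIH and 1 of 7 in male NX. Endothelial markers had 0 calls between genotypes. Of genes induced by tissue dissociation, 4 of 10 were lower and 1 higher in male NX, while 3 were higher in male CIH, 2 in female NX and 1 in female CIH, with 0 lower in these 3. The part of these cells in the members' values was not tested.

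Promoters of members were searched for the core of the hypoxia response element, the DNA site bound by HIF, because the members contain many HIF targets. The letters ACGTG and GCGTG were searched on both strands in the 250 bases before each RefSeq start site (GRCm38.p6), where a palindromic CACGTG counts on both strands. The windows of 4 members that behaved differently are shown, Ldha and Pgk1 as genes that were higher in 5XFAD, Hk2 as a gene that was not, and Ldhb as the partner of Ldha, each written 5′ to 3′ on the strand of the gene with the matches in capitals. Ldha lies on chr7:46845554-46845803 (+), Pgk1 on chrX:106186850-106187099 (+), Hk2 on chr6:82774455-82774704 (-) and Ldhb on chr6:142507958-142508207 (-), and none of these windows overlaps an exon of GENCODE vM21.
Ldha: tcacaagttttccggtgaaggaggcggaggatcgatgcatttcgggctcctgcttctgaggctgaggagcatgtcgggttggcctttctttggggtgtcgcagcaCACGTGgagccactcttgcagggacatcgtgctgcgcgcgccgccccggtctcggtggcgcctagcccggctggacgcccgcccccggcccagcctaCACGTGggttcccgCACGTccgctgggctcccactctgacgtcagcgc
Pgk1: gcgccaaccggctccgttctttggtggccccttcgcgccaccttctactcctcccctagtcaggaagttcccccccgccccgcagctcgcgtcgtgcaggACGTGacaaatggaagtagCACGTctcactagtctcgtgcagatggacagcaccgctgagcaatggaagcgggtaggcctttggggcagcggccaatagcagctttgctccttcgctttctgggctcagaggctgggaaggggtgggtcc
Hk2: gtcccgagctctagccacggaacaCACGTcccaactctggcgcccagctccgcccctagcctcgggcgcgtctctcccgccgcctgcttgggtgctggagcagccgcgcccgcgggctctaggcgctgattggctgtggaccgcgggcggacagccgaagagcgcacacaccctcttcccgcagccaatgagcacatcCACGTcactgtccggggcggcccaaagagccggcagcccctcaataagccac
Ldhb: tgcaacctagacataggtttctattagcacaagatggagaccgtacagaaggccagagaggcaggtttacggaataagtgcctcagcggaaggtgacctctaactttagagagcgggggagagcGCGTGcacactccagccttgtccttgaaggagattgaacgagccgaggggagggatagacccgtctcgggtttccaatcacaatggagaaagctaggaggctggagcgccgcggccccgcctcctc

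The Ldha window shown held 5 matches and the other RefSeq window of Ldha, on chr7:46846832-46847081 (+), held 1. Pgk1, Hk2 and Ldhb had a single window each. The window of Pgk1 held 2 matches, that of Hk2 2 and that of Ldhb 1. Of the 34 members with a window, 30 (88.2%) held at least 1 match in some window, against 41.5% of all 27025 genes with a window. Counted by window, 39 of 53 member windows (73.6%) and 38.6% of all 32851 windows held a match, with ACGTG in 16.6% and GCGTG in 28.2% of all windows. Among members that were higher in 5XFAD in the 3 comparisons named above, 11 of 13 (84.6%) held a match, and among the other members 19 of 21 (90.5%) did. A match is a description of the letters and not of binding. No window for Slc2a3 was given.

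Neighbouring pathways were counted with the same tests, from lists of genes that are not members. In female WT CIH vs 5XFAD CIH, 11 of 18 genes of the TCA cycle were higher in 5XFAD and 1 was lower, with a median log2 fold change of 0.29 against -0.02 over all genes tested, of which 26.2% were higher and 25.7% lower. The medians were 0.375 for the pentose phosphate pathway, 0.37 for glycogen, 0.76 for HIF targets outside glycolysis and 0.04 for other carriers. Of 11 other genes of glycolysis that were tested, 5 were higher and 1 was lower, with a median of 0.24. Of the pentose phosphate pathway, which branches from glucose-6-phosphate, 6 of 8 genes were higher and 1 was lower, led by Tkt (log2 fold change 0.84 ± 0.08 (SE), adjusted p = 9.92e-07). Of the glycogen genes, 6 of 8 were higher, led by Gyg, the glycogenin that primes glycogen (log2 fold change 1.78 ± 0.11 (SE), adjusted p = 2.38e-08). Of HIF targets outside glycolysis, 11 of 15 were higher and 1 was lower, led by the prolyl hydroxylase Egln3 (log2 fold change 5.38 ± 0.13 (SE), adjusted p = 2.18e-11) and Vegfa (log2 fold change 2.54 ± 0.20 (SE), adjusted p = 2.79e-07). Of other glucose and lactate carriers, 4 of 10 were higher and 3 lower, among them Slc2a6, a lysosomal glucose transporter of macrophages (log2 fold change 2.92 ± 0.17 (SE), adjusted p = 2.07e-08), and Bsg, the chaperone of the lactate carriers (log2 fold change 0.77 ± 0.07 (SE), adjusted p = 1.98e-06).

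In male WT CIH vs 5XFAD CIH, 15 of 18 TCA cycle genes, 5 of 8 pentose phosphate genes, 4 of 8 glycogen genes, 8 of 14 HIF targets and 5 of 10 carriers were higher in 5XFAD, against 25.3% of all genes. Of glycogen genes, HIF targets and carriers, 1 each was lower, against 23.7% of all genes. Their median log2 fold changes were 0.435, 0.61, 0.28, 0.56 and 0.04, against -0.06 over all genes. Egln3 (log2 fold change 5.34 ± 0.17 (SE), adjusted p = 2.25e-11), Slc2a6 (log2 fold change 3.25 ± 0.22 (SE), adjusted p = 3.97e-08) and Bsg (log2 fold change 1.41 ± 0.12 (SE), adjusted p = 5.24e-07) were among them. In female WT NX vs 5XFAD NX, 0 of 18 TCA cycle genes, 0 of 8 pentose phosphate genes, 2 of 8 glycogen genes, 1 of 15 HIF targets and 1 of 10 carriers were higher, against 7.26% of all genes, and 1 TCA cycle gene, 1 pentose phosphate gene and 2 carriers were lower, against 6.61%. These female counts include 5XFAD NX 4. The lists were not counted without that library, where 21.8% of all genes were higher and 22.2% lower. In male WT NX vs 5XFAD NX the counts of higher genes, in the same order of lists, were 3 of 18, 2 of 8, 3 of 8, 6 of 14 and 1 of 10. All genes stood at 10.4%, so the TCA cycle and the carriers lay near that share. Of the pentose phosphate genes, 1 was lower, against 7.37% of all genes. Of other genes of glycolysis, 4 of 10 were higher in male CIH, 3 of 11 in male NX and 1 of 11 in female NX. The shares of all genes were 25.3%, 10.4% and 7.26%, and 1 of the 11 was lower in male NX. Tigar, a phosphatase that lowers fructose-2,6-bisphosphate, was higher in 5XFAD in all 4 genotype comparisons, with log2 fold changes of 1.32 ± 0.31 (SE), adjusted p = 0.0295 in female NX, 1.59 ± 0.09 (SE), adjusted p = 1.56e-08 in female CIH, 1.36 ± 0.21 (SE), adjusted p = 0.000649 in male NX and 1.403 ± 0.18 (SE), adjusted p = 1.97e-05 in male CIH. How the female NX call of Tigar fared without single libraries was not examined. In that comparison, 2013 genes were called with all libraries. Without any 1 library other than 5XFAD NX 4, 43 to 933 were. The other subunits of the pyruvate dehydrogenase complex held 0 genes called higher in any genotype comparison, and 2 of 6 (Pdpr and Pdhx) were lower in male CIH, where the median was -0.26.

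With CIH in male WT, the medians were -0.295 for the TCA cycle, -0.33 for the pentose phosphate pathway, -0.555 for other carriers and 0.03 for HIF targets, against -0.01 over all genes. Of TCA cycle genes, 10 of 18 were lower, and of pentose phosphate genes, 4 of 8 were lower, including Tkt (log2 fold change -0.57 ± 0.09 (SE), adjusted p = 0.000419). Of the other carriers, 2 of 10 were lower and 9 of 10 had a negative value. Of 11 other genes of glycolysis, 2 were lower and 0 were higher. The shares of all genes were 15% lower and 13.6% higher. Bsg was lower as well (log2 fold change -0.65 ± 0.10 (SE), adjusted p = 0.000589). Of HIF targets outside glycolysis, 4 of 14 were higher and 0 were lower, namely Vegfa (log2 fold change 0.74 ± 0.25 (SE), adjusted p = 0.0388), Ddit4 (log2 fold change 1.05 ± 0.34 (SE), adjusted p = 0.0296), Kdm3a (log2 fold change 0.43 ± 0.10 (SE), adjusted p = 0.00437) and P4ha1 (log2 fold change 0.37 ± 0.10 (SE), adjusted p = 0.00898). These calls came from the fit of the 2 groups, as 0 genes passed when all 4 male groups were fitted together.

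**Figure D4:**
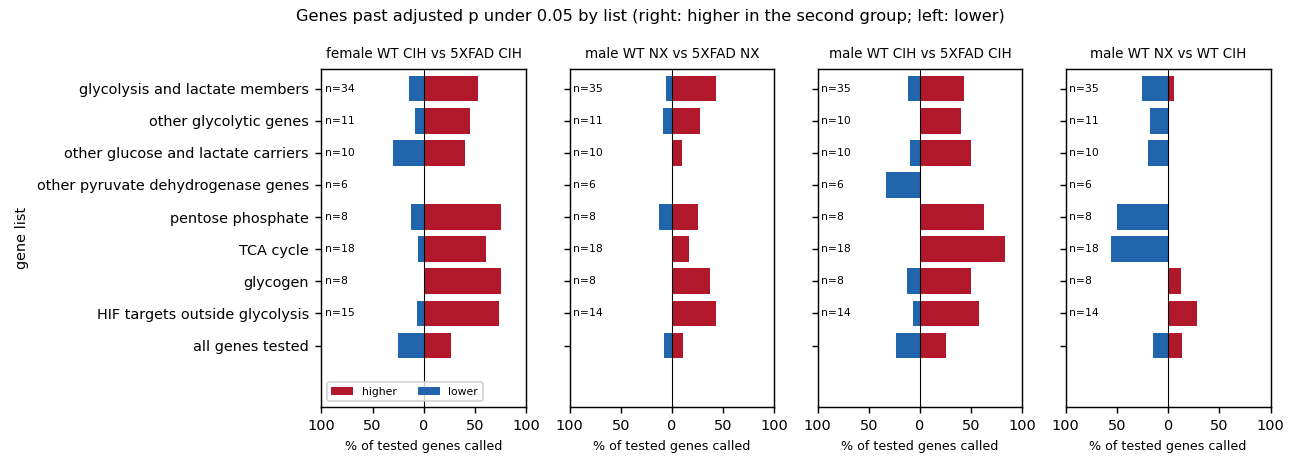
Percent of tested genes past adjusted p under 0.05 for the members, 7 neighbouring lists and all genes in 4 comparisons, with genes higher in the second group to the right (red) and lower to the left (blue). In male WT NX vs WT CIH, 9 of 35 members and 10 of 18 TCA cycle genes lie to the left, while 4 of 14 HIF targets outside glycolysis lie to the right.

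Copies of members could take part of their reads. In males, annotated copies of Gapdh, Ldha, Pgam1, Pgk1, Tpi1, Aldoa, Eno1 and Pkm took at most 2.71% of their family's counts in any library. This share covers only reads assigned to a copy. Reads dropped because they matched a gene and its copy alike would not appear in it. Eno1b averaged 6.37 CPM in females and 10.5 CPM in males, and Mpc1-ps averaged 41.1 CPM in males, so the male Mpc1 values are uncertain. In the male table Aldoa was listed under 2 identifiers, of which the one used here carried nearly all reads and the other at most 18 counts in a library.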

How the data were processed

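RNA of CD11b bead isolates was sequenced in 39 libraries. Per the submitters' processing notes, reads were aligned with HISAT2 to GRCm38/mm10. The counting tool is not given in the sources used here. The authors deposited raw counts and FPKM per gene in 1 table per sex. FPKM were used only between genes, since male FPKM were computed on a library constant 0.794 to 1.2 times the table total.

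Counts were tested here with edgeR 4.0.16 (R 4.3.3, limma 3.58.1) by the quasi-likelihood F test with TMM scaling, for each pair of groups and for the interaction over 4 groups. Genes with CPM above 1 in at least 3 libraries were kept, and Benjamini-Hochberg adjustment ran over all of them. A call needed adjusted p under 0.05. Fold changes are second over first group on the log2 scale, and SE is the absolute log2 fold change over the square root of F. DESeq2 1.42.0, a likelihood ratio test, a gene-length offset, library size scaling, no filter on low counts, a shared fit, a replicate block and leaving out each library were alternatives. The steps were tested on simulated counts. None of the 76 pairs of libraries within a group agreed within sampling noise.

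Depth gave a floor of 3 counts at 0.116 to 0.204 CPM in females and 0.130 to 0.223 CPM in males, which covers counting error only. The value in every library is given for 22 members, namely Hk2, Pfkfb3, Pkm, Ldha, Pdk1, Slc2a1, Slc2a5 and Slc16a3, those past adjusted p 0.05 and an absolute log2 fold change of 1 in a comparison, and the 2 with the smallest adjusted p in each. The members and lists were chosen with earlier results of these data known.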

Additional observations from a re-analysis of the deposited data

Results flagged for a closer look

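Among 176 groups of 4 or 5 libraries examined for 22 members, 19 held a library whose gap to its nearest neighbour was large against the range of its group. Chance gives about 1 in 20, or 8.8 here. All values are TMM-scaled CPM, and no explanation was tested.

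Female WT NX 1 stood above its group for Pkm (551.2, others 295 to 334.5), Slc2a1 (117.4, others 58.17 to 67.32) and Pgam1 (114.7, others 57.67 to 65.37). Male 5XFAD CIH 5 stood above its group for Aldoa (1903, others 1193 to 1381), Gpi1 (651.2, others 467.1 to 511.6) and Slc2a1 (186.8, others 109.3 to 129.3). Female 5XFAD NX 4 stood below its group for Pfkfb3 (225.0, others 360.2 to 406.7).

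Gapdh had a single high library in female WT NX (48.84, others 12.64 to 17.01), female 5XFAD NX (153, others 16.58 to 52.94), female 5XFAD CIH (82.82, others 15.42 to 28.62), male WT NX (114, others 18.25 to 26.84) and male 5XFAD NX (148.3, others 23.23 to 34.73). Female 5XFAD CIH 3, the high library for Gapdh, was the low one for Slc2a3 (20.08, others 26.29 to 27.9).

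The others were Aldoa in female WT CIH 4 (326.2, others 262.3 to 276.7), Ldhb in female 5XFAD NX 3 (214.9, others 224.3 to 227.5), Pfkfb3 in female 5XFAD CIH 4 (307.4, others 358 to 370.6), Eno2 in male WT NX 1 (5.332, others 2.804 to 3.271), Hk2 in male 5XFAD CIH 2 (245.2, others 179.1 to 196.4) and Slc2a3 in male WT CIH 4 (14.15, others 10.35 to 11.41).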

How the results depend on the processing

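The member count of 10 in female WT NX vs 5XFAD NX became 17 with DESeq2, 16 with the likelihood ratio test, 21 with all 4 groups in 1 fit, 3 with the larger fold change and 0 with the replicate block. Over all genes, 2013 calls became 3509, 2733, 4622, 869 and 7 in the same order. Leaving out 1 library gave 0 to 21. With the larger fold change the counts were 15 in female CIH and 12 in male CIH. In male WT NX vs WT CIH the count of 11 became 0 with all 4 groups in 1 fit and 0 with the larger fold change, and 4279 calls over all genes became 0 and 376. The male interaction count of 0 became 5 with DESeq2, 2 with the likelihood ratio test and 5 with no filter on low counts, against 945, 248 and 1754 over all genes. Leaving out 1 library gave 22 to 23 in female CIH, 17 to 20 in male NX, 18 to 21 in male CIH, 11 to 15 in male WT with CIH and 0 to 6 for the male interaction (6 without 5XFAD NX 1, with 953 genes). Over all genes, leaving out 1 library gave 6952 to 7654, 2058 to 2771, 6462 to 7643 and 3250 to 4731 calls in the first 4 of these. Replicate numbers did not pair the samples (deviations of same-numbered libraries correlated at -0.649 to 0.342). With the replicate block, 23, 14, 19 and 12 members were called in female CIH, male NX, male CIH and male WT with CIH. Over all genes, 7801, 1310, 7110 and 3856 were called with the block, against 7739, 2638, 7248 and 4279 in the main fits. Of 2358 log2 fold changes of named members under the alternatives, 119 lost the call, 28 gained it in the same direction and 1 gained it in the other, Pdk1 in male CIH at -0.234 with library size alone. The sign changed in 37, Pdk1 included, all of values not called and at most 0.281 in size. The causes were not tested.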
